A study of Danio rerio with 6 samples.

Results

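Genes that steer growing axons or hold neural cells together were read from expression arrays of whole zebrafish embryos at 24 hours post fertilization (hpf). The set holds 63 of the 8793 genes that the array names with 1 symbol. They were chosen by symbol, by a rule that uses no difference between the groups, though with earlier results of these data known. Among them are semaphorins with plexins and neuropilins, Slits with Robo receptors, netrins and repulsive guidance molecules (RGM) with *neo1a*, and the Hedgehog receptor gene *boc*. Others are ephrins with Eph receptors, adhesion molecules of the immunoglobulin superfamily, the chemokine axis of *cxcl12* and *cxcr4*, neuregulins and a reticulon. Each gene was read from the probe set with its highest mean over the 6 arrays. The spelling rule also took in *rtn4ip1*, a mitochondrial protein gene, and *unc50*, which is not an Unc5 netrin receptor. Both are counted in the 63 and are described apart from the rest.

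The arrays compared 3 samples of *fogsk8* mutant embryos with 3 samples of their wild-type (WT) siblings, all at 24 hpf. No treatment is named for either group, and each sample held total RNA of whole embryos, taken from equal numbers of mutants and siblings. The *sk8* mutation lies in *supt5h*, which encodes the transcription elongation factor Spt5. The study predicts that no functional Spt5 is made from the mutant gene and describes remaining protein of maternal origin at this stage, so the mutants lack zygotic product but not all Spt5. The sources used here do not say how mutants were told from siblings for the arrays, or whether the siblings included heterozygotes.

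Guidance molecules work as ligand and receptor pairs on the growth cone, the moving tip of an axon. Netrins attract or repel, Slits repel through Robo receptors, semaphorins act through plexins with neuropilins as partners, and ephrins and Eph receptors signal between touching cells. The same molecules act outside axons: Eph and ephrin signals sharpen the borders of hindbrain segments and somites, semaphorins and EphB4 pattern blood vessels, and Cxcl12 leads migrating cells that carry Cxcr4, among them germ cells and the lateral line primordium of the zebrafish. At 24 hpf the first axon tracts of the embryo have formed and many others are growing.

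Every value below is a deposited log2 value from GC-RMA, which corrects probes for background by their base content and combines the probes of a set, so that 1 unit is a doubling. A gene counted as higher or lower in mutants when limma gave an adjusted p under 0.05, and counts are given with a minimum change of 2-fold, with 1.5-fold and with none. Levels of different probe sets are not on a common scale, and no gene was called higher or lower by comparing its level with that of another. Levels served to choose a probe set per gene and some of the genes named, and to mark dim values (below). Differences between paired gene copies were compared between groups, not read as levels. Summed levels of marker lists, given as ranges over samples, add linear values of different probe sets and are set mainly by the brightest of them. In RNA of whole embryos, fewer cells of a type and less RNA per cell cannot be told apart.

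The transcript of the mutated gene was read first, as a check of the labels: *supt5h* read 7.42, 7.56 and 6.80 in WT siblings and 3.66, 3.70 and 3.81 in mutants (limma, log2 fold change −3.54, SE 0.20, adjusted p = 0.000994). The 6 arrays had medians between 5.08 and 5.15. Replicates 1 and 2 of a group correlated at 0.996 to 0.997 over all probe sets, replicate 3 with either of them at 0.991 to 0.992, and arrays of different groups at 0.967 to 0.98. Replicate 3 therefore stood a little apart in both groups, and counts without it are given below.

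Of the 63 genes, 1 was lower by at least 2-fold in mutants and none was higher by that much. The share lower was 1.59%, against 3.2% of all 8793 genes, and 0.898% of all genes were higher. The methods' t-test gave the same 0 and 1 with and without adjustment, and limma without adjustment also gave 0 and 1. At 1.5-fold or more, 6 were lower (9.52%, against 6.43% of all genes), while no member reached 1.5-fold in the other direction (4.57% of all genes were called higher there). With no minimum fold, 11 were lower (17.5%, against 9.14% of all genes) and 3 were higher (4.76%, against 10.8%). The methods' t-test at any fold gave 5 lower and 2 higher with adjustment, and 12 lower and 6 higher without it. The median change of the set was 0.00 on the log2 scale beside 0.06 over all genes, or −0.2 beside 0.0985 with dim genes (below) left out of both, and 32 of 63 members (50.8%) had a positive change beside 63.7% of all genes. In 16 members (25.4%) all mutant samples lay below all WT samples, as in 15.6% of all genes, and in 7 (11.1%) all lay above, as in 25.3%.

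**Figure D1:**
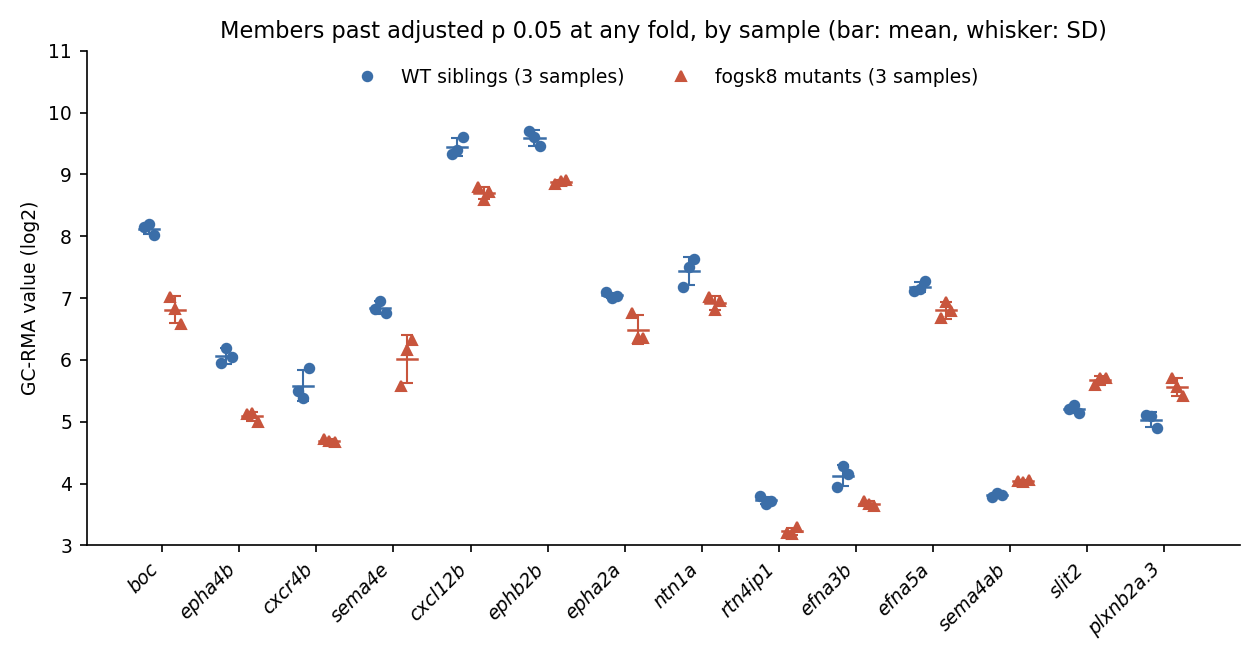
GC-RMA values (log2, vertical axis) of the 14 members past an adjusted p of 0.05 at any fold, ordered from the largest fall to the largest rise, with WT siblings as circles and *fogsk8* mutants as triangles, 3 samples each, a bar at the mean and whiskers of 1 SD. In each of the 14 genes the 2 groups do not overlap, and only *slit2*, *plxnb2a.3* and *sema4ab* lie higher in mutants.

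Many members gave little signal. In 28 of 63 members (44.4%) the mean value was under 4 in both groups, compared with 2357 of 8793 genes (26.8%), and such values are called dim here. Apart from *rtn4ip1*, the dim members changed by at most 0.43 in either direction. A change in a dim probe set may be understated, so their small differences do not show that these genes were unaffected. Among 28 ligand genes, 12 of them dim, 5 were lower and 2 higher at any fold. Among 22 receptor genes, 6 of them dim, 5 were lower and 1 higher. Over all genes 9.14% were lower and 10.8% higher at any fold, the shares to set beside the family and list counts below.

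**Figure D2:**
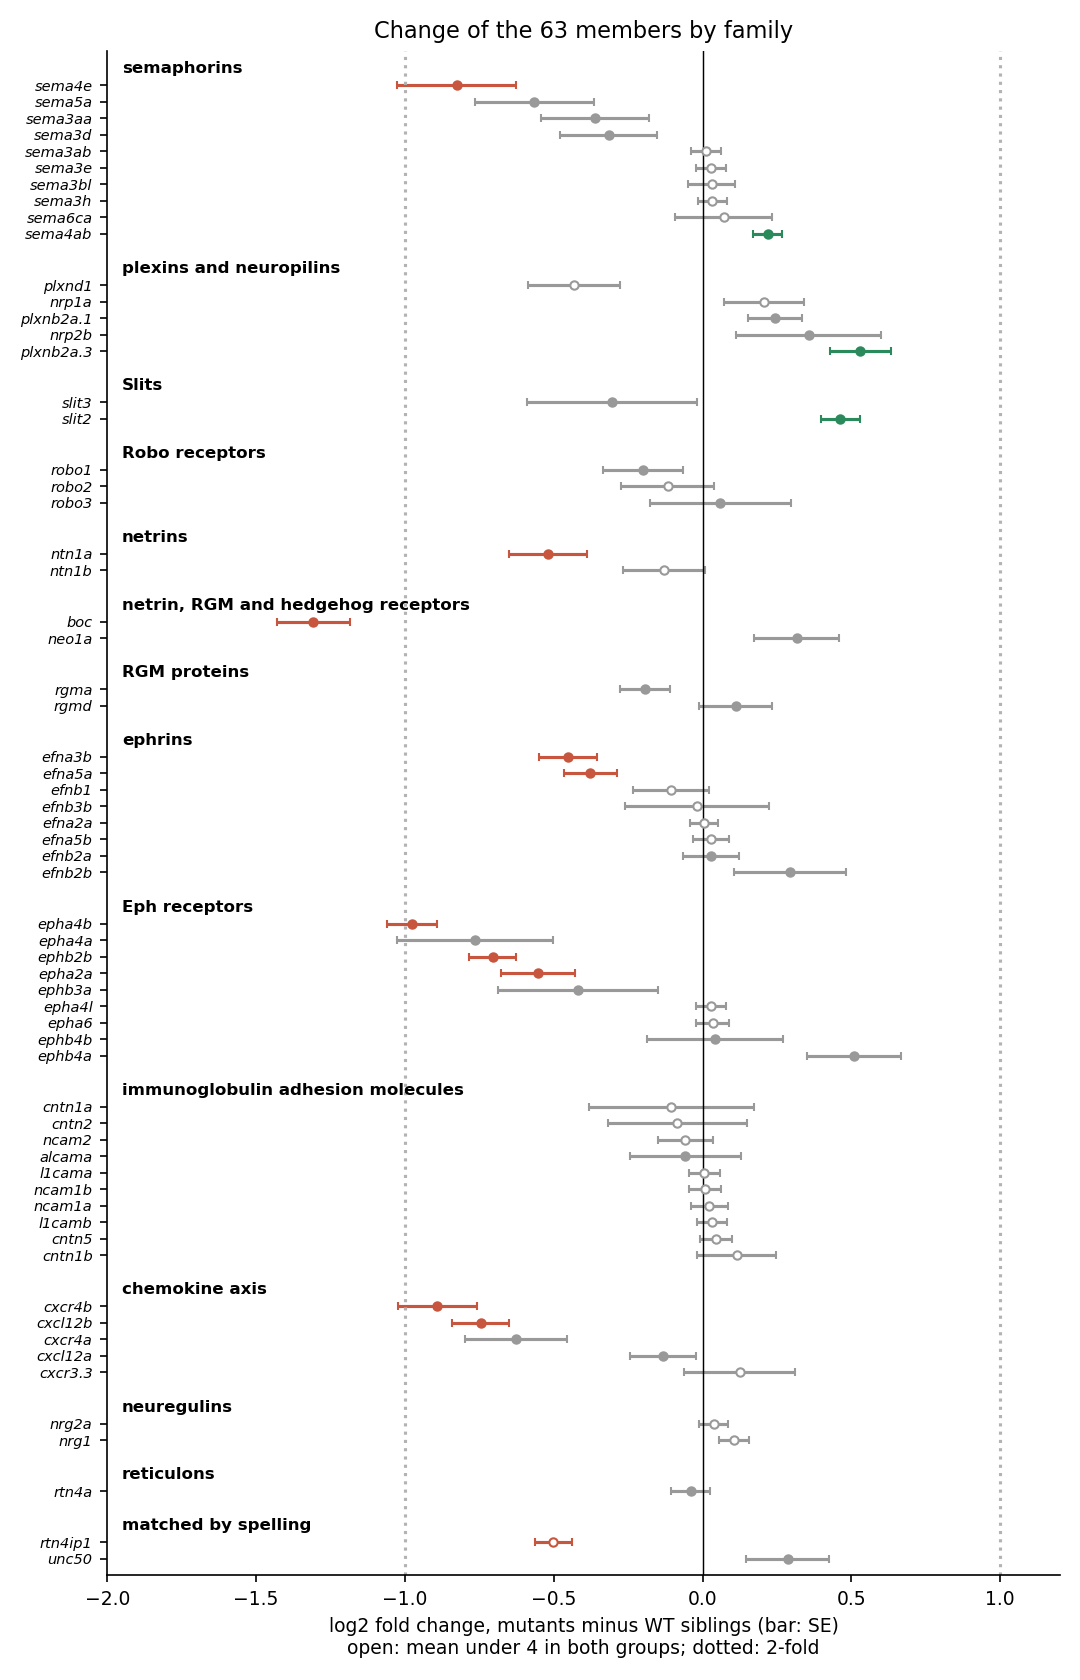
Log2 fold change (mutants minus WT siblings, horizontal axis) with its standard error for each of the 63 members, grouped by family. Red marks an adjusted p under 0.05 with a fall, green one with a rise, grey no call, open circles dim members, and dotted lines 2-fold. *boc* is the only member past 2-fold, at −1.31, and every open circle but that of *rtn4ip1* lies within 0.43 of 0.

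The gene with the largest change was *boc*, which encodes a cell surface protein with immunoglobulin and fibronectin repeats that binds Hedgehog and, in mouse, guides commissural axons. It read 8.15, 8.19 and 8.03 in WT siblings and 7.02, 6.83 and 6.59 in mutants (limma, log2 fold change −1.31, SE 0.12, adjusted p = 0.00329). Every mutant sample lay at least 1 unit below every WT sample, a 2.47-fold fall of the means. Another probe set of *boc* read 6.48, 6.53 and 6.19 against 5.12, 4.72 and 4.39 and fell by 1.65 (SE 0.20, limma adjusted p = 0.00678). *neo1a*, which encodes neogenin, a receptor for netrins and RGMs of the same broad superfamily, did not fall with it. It read 7.65, 7.72 and 7.56 in WT siblings and 8.18, 8.04 and 7.67 in mutants (log2 fold change 0.32, SE 0.14, limma adjusted p = 0.195). The highest WT sample was above the lowest mutant sample, so the groups overlapped, and the call was made only when *fogsk8* replicate 3 was left out (limma adjusted p = 0.0353).

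Among the netrin and RGM ligands of neogenin, *ntn1a*, the netrin of the floor plate and ventral nervous system, read 7.19, 7.50 and 7.63 in WT siblings and 7.02, 6.80 and 6.95 in mutants (limma, log2 fold change −0.52, SE 0.13, adjusted p = 0.0493). The groups did not overlap, but the gap between the lowest WT and the highest mutant sample was small. The call was lost with the replicate number as a block (limma adjusted p = 0.0603), with arrays centred on their medians (0.0585) and with a second quantile normalization (0.0591). Of 2 other probe sets of *ntn1a*, 1 fell by 0.92 (SE 0.22, limma adjusted p = 0.0412) and 1 was dim at 0.03. *ntn1b* was dim, with a change of −0.13. The RGM ligands gave a strong signal and small differences: *rgma* changed by −0.19 (SE 0.08, limma adjusted p = 0.186) and *rgmd*, a member of the family kept in fishes, by 0.11 (SE 0.12, limma adjusted p = 0.569).

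Beside these genes stood a list of markers for floor plate and notochord, of which 10 were measured. Like the other lists below, it was written with earlier results of these data known. At any fold 3 fell and 2 rose, 2 of the falls by at least 2-fold: *col2a1a* (−1.34) and *col9a2* (−1.96), collagen genes of the notochord sheath and cartilage. *foxa* and *foxa2*, transcription factor genes of the floor plate, rose by 0.84 and 0.46, while of its Hedgehog ligand genes the dim *shhb* fell by 0.77 (limma adjusted p = 0.0248) and *shha* changed by −0.15 (0.37). The others without a call were *ccn2a* (0.79, limma adjusted p = 0.0646), *tbxta* (0.22), and the dim *noto* (−0.05) and *col8a1a* (−0.48). *col2a1a* lost its call without WT replicate 2 (limma adjusted p = 0.0527) or *fogsk8* replicate 2 (0.0503). The summed level of the 10 genes on the linear scale was 1425 to 1703 in WT siblings and 1075 to 1443 in mutants, with overlapping ranges. The median change of this list was −0.10. The part of these cells in the change of *ntn1a* and *boc* was not tested.

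Eph receptors, tyrosine kinases that bind ephrins on neighbouring cells, held 3 of the 11 falls. Of 9 receptor genes 3 fell, none rose and 6 did not pass the test, with a median change of −0.42. *epha4b*, a paralogue of a receptor gene known for hindbrain segment borders, read 5.96, 6.20 and 6.04 in WT siblings and 5.12, 5.14 and 5.003 in mutants (limma, log2 fold change −0.98, SE 0.08, adjusted p = 0.00274). Within each group the samples lay close together, and the change of 1.97-fold was just under the 2-fold minimum. It passed that minimum when WT replicate 1 (limma adjusted p = 0.0121) or *fogsk8* replicate 2 (0.0144) was left out. *epha4a* lay lower in every mutant sample too, at 5.81, 5.54 and 5.01 against 6.37, 6.47 and 5.82, with replicate 3 lowest in both groups. Its change of −0.76 had an SE of 0.26 and an adjusted p of 0.108 in limma. With the replicate number as a block the adjusted p became 0.0132, and without replicate 3 of both groups it was 0.0411. A second probe set of *epha4a* changed by −0.86 (SE 0.24, limma adjusted p = 0.0638).

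*ephb2b*, an EphB receptor gene, read 9.71, 9.61 and 9.45 in WT siblings and 8.85, 8.89 and 8.92 in mutants (limma, log2 fold change −0.71, SE 0.08, adjusted p = 0.0055). The 3 mutant samples lay within 0.067 of one another and well below the lowest WT sample. *epha2a* read 7.09, 7.004 and 7.03 against 6.77, 6.36 and 6.35 (log2 fold change −0.55, SE 0.13, limma adjusted p = 0.0361). Here the mutant in replicate 1 lay between the WT samples and the other mutants. *ephb4a*, whose product marks vein endothelium, was the Eph receptor gene with the most positive change. It read 4.25, 4.19 and 3.81 in WT siblings and 4.65, 4.77 and 4.37 in mutants (log2 fold change 0.51, SE 0.16, limma adjusted p = 0.0847). All mutant samples were above all WT samples, and the adjusted p was 0.0177 with the replicate block and 0.0354 without replicate 3 of both groups. Its paralogue *ephb4b* changed by 0.04 (SE 0.23, limma adjusted p = 0.908), and *ephb3a* by −0.42 (SE 0.27, limma adjusted p = 0.347, or 0.0427 with the replicate block). *epha4l* and *epha6* were dim.

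Of 8 ephrin genes, whose products are the ligands of Eph receptors, 2 fell and none rose at any fold. *efna5a*, a ligand held to the membrane by a lipid anchor and known from the retinotectal map, read 7.12, 7.14 and 7.28 in WT siblings and 6.68, 6.94 and 6.79 in mutants (limma, log2 fold change −0.38, SE 0.09, adjusted p = 0.0406). Its other 2 probe sets were dim and changed by 0.06 and −0.10, and the mean of all 3 changed by −0.14 with no call (limma adjusted p = 0.219). The call was also lost with a mean-variance trend (0.0629) and with arrays centred on their medians (0.0543). *efna3b*, of the same class, read 3.94, 4.29 and 4.16 against 3.72, 3.67 and 3.64 (log2 fold change −0.45, SE 0.10, limma adjusted p = 0.0317). It lay at the border of dim values, with means of 4.13 in WT siblings and 3.68 in mutants. Both falls were under 1.5-fold. The transmembrane ephrin gene *efnb2a*, known in arteries and segment borders, changed by 0.03 (SE 0.09, limma adjusted p = 0.842) and *efnb2b* by 0.29 (SE 0.19, limma adjusted p = 0.345). *efna2a*, *efna5b*, *efnb1* and *efnb3b* were dim, with changes between −0.11 and 0.03.

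In the chemokine axis, as among ephrins and Eph receptors, a ligand gene and a receptor gene both fell. The genes past the test, *cxcl12b* and *cxcr4b*, are not taken as a matched ligand and receptor. The ligand gene *cxcl12a* did not pass the test. *cxcr4b* encodes the receptor that the lateral line primordium and germ cells of the zebrafish use in migration. It read 5.50, 5.39 and 5.87 in WT siblings and 4.72, 4.69 and 4.68 in mutants (limma, log2 fold change −0.89, SE 0.13, adjusted p = 0.0113). The mutant samples were within 0.039 of one another, 1.85-fold below the WT mean. The paralogue *cxcr4a* read 6.54, 6.36 and 6.40 against 6.13, 5.82 and 5.46, with no overlap (log2 fold change −0.63, SE 0.17, limma adjusted p = 0.0614). It passed the test with the replicate block (limma adjusted p = 0.0324), with dim probe sets left out (0.0333) and without *fogsk8* replicate 1 (0.0346).

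Of the ligand genes, *cxcl12b* read 9.34, 9.39 and 9.60 in WT siblings and 8.80, 8.59 and 8.71 in mutants (limma, log2 fold change −0.75, SE 0.10, adjusted p = 0.00794). The nearest samples of the groups were 0.54 apart. *cxcl12a*, the ligand gene known for guiding the lateral line primordium, read 6.80, 6.97 and 6.88 against 6.55, 6.80 and 6.92, with overlap (log2 fold change −0.13, SE 0.11, limma adjusted p = 0.465). A second, weaker probe set of *cxcl12a* read 5.70, 5.50 and 5.81 against 4.83, 5.14 and 5.21 and fell by 0.61 (SE 0.13, limma adjusted p = 0.0321). The 2 probe sets of this gene therefore fell on different sides of the threshold. *cxcr3.3*, a receptor gene outside this axis, was dim.

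Markers of the lateral line primordium, which carries Cxcr4b, were set beside these values. Of 8 measured, 4 fell at any fold and none rose, and only *atoh1a*, the hair cell determination gene, fell by at least 2-fold (−1.48), a call lost without WT replicate 1 (limma adjusted p = 0.0574). The other falls were those of *pou3f1* (−0.91), *eya1* (−0.76) and *fgf10a* (−0.59). Without a call were *lef1* (0.37, limma adjusted p = 0.0818), the dim *fgf3* (−0.07), and the epithelial genes *cldnb* (0.18) and *epcam* (0.26), also expressed in skin. RNA of any of these 8 markers in whole embryos need not come from the primordium alone. The summed level was 2807 to 2973 in WT siblings and 2966 to 3138 in mutants. The median change was −0.33. Of 6 vessel markers 3 fell, each by at least 2-fold: the endothelial genes *fli1* (−1.47), *kdrl* (−1.45) and the dim *tie1* (−1.33). The 3 without a call were *flt4* (0.26), *aplnra* (0.02) and the dim *tek* (−0.01), and the median change was −0.67. The summed level of the 6 markers was 319 to 360 in WT siblings and 211 to 229 in mutants. The part of either cell type in the change of the chemokine, Eph or plexin genes was not tested.

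**Figure D3:**
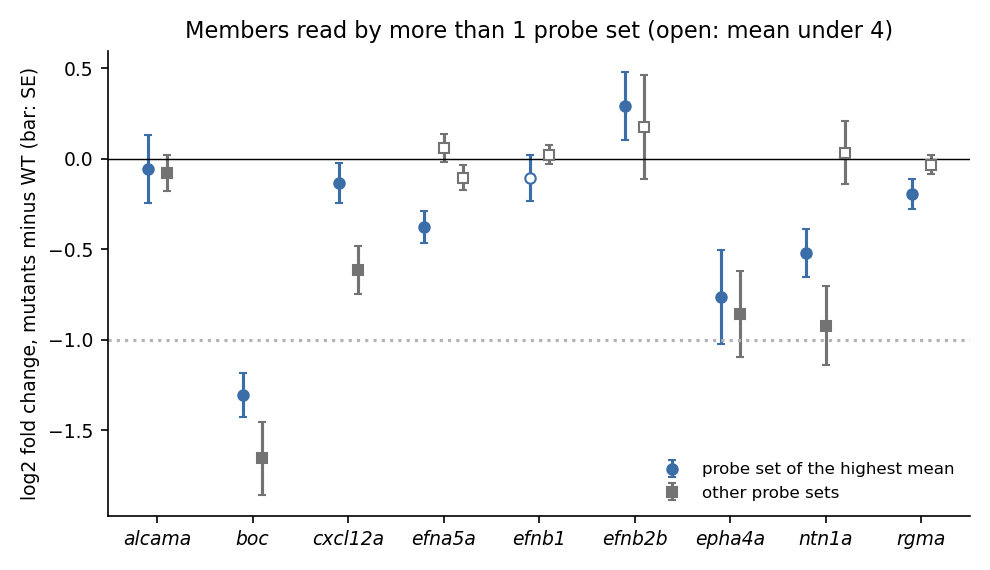
Log2 fold change (mutants minus WT siblings, vertical axis) with its standard error for the 9 members with more than 1 probe set. Blue circles are the probe sets used for the gene, grey squares its others, and open symbols dim probe sets. Both probe sets of *boc* lie below the dotted 2-fold line, those of *epha4a* lie close together, and those of *cxcl12a* lie apart at −0.13 and −0.61.

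Semaphorins changed in both directions. Of 10 genes 1 fell, 1 rose and 8 did not pass the test, and 5 were dim. *sema4e*, a membrane-bound semaphorin of class 4, read 6.82, 6.96 and 6.75 in WT siblings and 5.58, 6.16 and 6.32 in mutants (limma, log2 fold change −0.83, SE 0.20, adjusted p = 0.0433). The WT samples agreed closely while the mutants spread over 0.74, with replicate 1 lowest. *sema4ab*, of the same class, read 3.79, 3.85 and 3.82 against 4.04, 4.03 and 4.05 (log2 fold change 0.22, SE 0.05, limma adjusted p = 0.0357). It lay at the border of dim values, the rise was 1.16-fold, and the adjusted p was 0.0897 with the replicate block, 0.13 with dim probe sets left out and 0.175 with a mean-variance trend. *sema5a* read 4.42, 5.06 and 5.17 against 4.31, 4.29 and 4.36 (log2 fold change −0.56, SE 0.20, limma adjusted p = 0.118). Its WT replicate 1 lay beside the mutants, and the adjusted p without that sample was 0.013.

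The secreted class 3 semaphorins, which repel many axons, had 2 members above the dim range. *sema3aa* changed by −0.36 (SE 0.18, limma adjusted p = 0.243) and *sema3d* by −0.32 (SE 0.16, limma adjusted p = 0.257). Both overlapped between groups, and with the replicate block their adjusted p values were 0.0479 and 0.0483. *sema3ab*, *sema3bl*, *sema3e*, *sema3h* and *sema6ca* were dim, with changes between 0.01 and 0.07.

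Of 5 genes for the receptors of semaphorins, 1 rose and none fell. *plxnb2a.3*, a plexin B gene of the class that binds class 4 semaphorins in mammals, read 5.11, 5.09 and 4.89 in WT siblings and 5.71, 5.56 and 5.41 in mutants (limma, log2 fold change 0.53, SE 0.10, adjusted p = 0.0230). In both groups replicate 3 was lowest, and the groups did not overlap. Its neighbour by name *plxnb2a.1* also lay higher in every mutant sample, at 7.66, 7.82 and 7.68 against 7.58, 7.52 and 7.32, but did not pass the test (log2 fold change 0.24, SE 0.09, limma adjusted p = 0.137). *nrp2b*, a neuropilin gene, changed by 0.36 with a wide spread (SE 0.24, limma adjusted p = 0.375), and the dim *nrp1a* by 0.21. *plxnd1*, the plexin of developing vessels, was dim at 3.61, 3.53 and 3.28 against 3.11, 3.26 and 2.76 (log2 fold change −0.43, SE 0.16, limma adjusted p = 0.123). Its adjusted p was 0.0324 with the replicate block, and it is named because of that value.

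*slit2* was the member whose rise held best. This gene for a secreted repellent of the midline read 5.20, 5.27 and 5.15 in WT siblings and 5.59, 5.71 and 5.71 in mutants (limma, log2 fold change 0.46, SE 0.07, adjusted p = 0.0101). The rise was 1.38-fold, and each group spread by no more than 0.13. *slit3* read 5.10, 4.71 and 4.12 against 4.08, 4.69 and 4.26, with overlap (log2 fold change −0.30, SE 0.29, limma adjusted p = 0.511). None of the 3 Robo receptor genes changed by the test, in which the smallest adjusted p was 0.371. *robo1* changed by −0.20 (SE 0.14), *robo3*, known for its part in commissural axons, by 0.06 (SE 0.24), and *robo2*, the receptor gene mutated in the zebrafish *astray* line, was dim at −0.12.

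The adhesion molecules of the immunoglobulin superfamily, which bind cells and axons to one another, showed no call. All 10 had an adjusted p of at least 0.588 in limma, and the smallest unadjusted p was 0.421. Of these, 9 were dim: *ncam1a*, *ncam1b*, *ncam2*, *l1cama*, *l1camb*, *cntn1a*, *cntn1b*, *cntn2* and *cntn5*, with changes between −0.10 and 0.11. The exception was *alcama*, which encodes a surface protein of motor neurons and retinal ganglion cells in zebrafish. It read 7.90, 7.78 and 8.03 in WT siblings and 7.81, 7.51 and 8.22 in mutants (log2 fold change −0.06, SE 0.19, limma adjusted p = 0.845), with the highest and the lowest of the 6 values both among the mutants. A second probe set of *alcama* changed by −0.08 (SE 0.10, limma adjusted p = 0.628).

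Of the remaining members, *rtn4a*, a gene of the Nogo family of membrane-shaping proteins, gave a strong and even signal between 11.15 and 11.34 in all 6 samples (log2 fold change −0.04, SE 0.07, limma adjusted p = 0.6995). The neuregulin genes *nrg1* and *nrg2a*, ligands of ErbB receptors, were dim, with changes of 0.11 and 0.04. Among the matches by spelling, *rtn4ip1* read 3.79, 3.67 and 3.72 in WT siblings and 3.21, 3.18 and 3.29 in mutants (log2 fold change −0.50, SE 0.06, limma adjusted p = 0.00732). It is 1 of the 11 genes lower at any fold and 1 of the 28 dim ones, and its product is no guidance molecule. *unc50* changed by 0.29 (SE 0.14, limma adjusted p = 0.231).

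**Figure D4:**
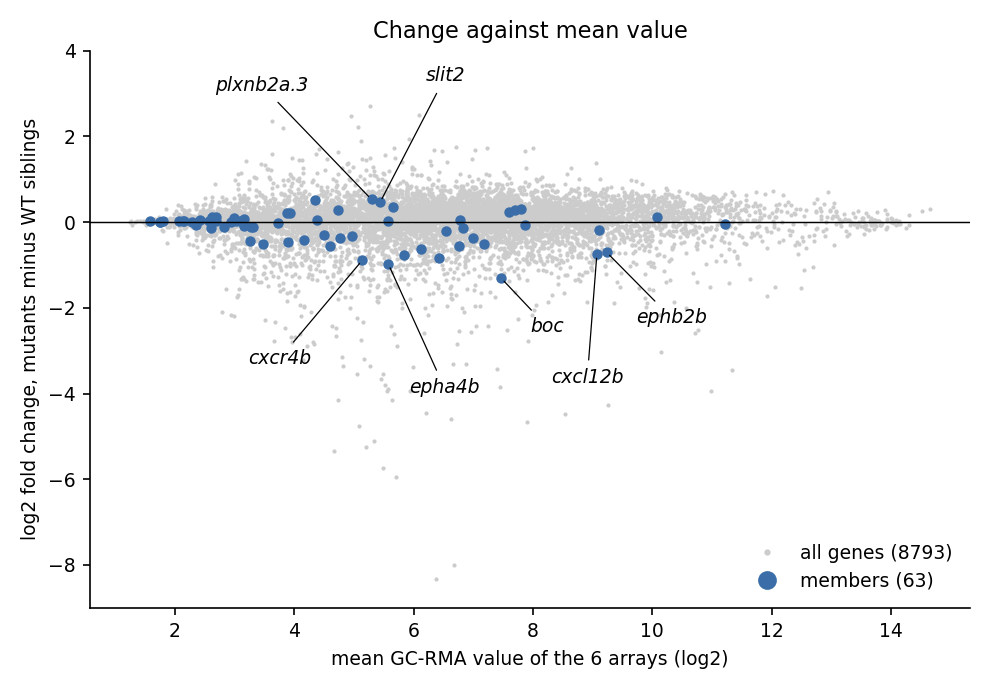
Log2 fold change (mutants minus WT siblings, vertical axis) against the mean GC-RMA value of the 6 arrays (log2, horizontal axis) for all 8793 genes in grey and the 63 members in blue. *boc*, *epha4b* and *cxcr4b* are the lowest of the blue points, and *plxnb2a.3* is the highest, at 0.53.

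Zebrafish kept a pair of copies of many of these genes, and 11 pairs were on the array with both copies. The difference between copies was formed within each array and compared between groups. None of the 11 pairs differed in its change at an adjusted p under 0.05 (limma over 664 pairs of the array, of which 121, or 18.2%, did). Only the pairs of *cxcl12*, *cxcr4*, *efnb2*, *epha4* and *ephb4* had no dim copy. In the other pairs a difference may be understated, so this count does not show that the copies changed alike. At an unadjusted p under 0.05, limma gave 4 pairs and the t-test 2, and the t-test with adjustment gave 0. The nearest was *cxcl12a* and *cxcl12b*, whose changes differed by 0.61 (SE 0.17, limma adjusted p = 0.0513). This difference depends on the probe set of *cxcl12a*. The one used changed by −0.13 and the weaker one by −0.61, beside −0.75 for *cxcl12b*. Within arrays, *cxcl12a* minus *cxcl12b* was −2.54, −2.42 and −2.72 in WT siblings and −2.25, −1.80 and −1.79 in mutants. The pair passed the test with dim paralogues left out (limma adjusted p = 0.0393 over 448 pairs) and without *fogsk8* replicate 1 (0.0414), and was at 0.148 when all probe sets of each gene were averaged. The changes of *cxcr4a* and *cxcr4b* differed by 0.26 (SE 0.21, limma adjusted p = 0.427) and those of *epha4a* and *epha4b* by 0.21 (SE 0.24, limma adjusted p = 0.586).

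Other genes of the pathway were read from a list of growth cone effectors, the enzymes and cytoskeletal proteins that act downstream of guidance receptors. Of 91 symbols listed 45 were measured, of which 7 fell and 4 rose at any fold, 2 of the falls by at least 2-fold, and the median change was 0.02. *rac3b*, a Rac GTPase gene, fell by 1.79 (SE 0.32, limma adjusted p = 0.0194), and *dpysl3*, which encodes a CRMP protein that relays semaphorin signals to microtubules, by 1.37 (SE 0.09, limma adjusted p = 0.00156). *rac3b* lost its call without WT replicate 1 (limma adjusted p = 0.0646), *fogsk8* replicate 1 (0.0592) or *fogsk8* replicate 2 (0.0576). The 4 rises were those of *ptk2aa* (0.53), *pak4* (0.40), *mapre1a* (0.40) and *rhoac* (0.34), each under 1.5-fold. The GTPase genes *rac1a* and *cdc42* changed by 0.08 and 0.03 and did not pass the test.

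Markers of nerve cells were read from the same fit. Of 12 neuronal markers measured, 7 fell and none rose at any fold, with a median change of −0.97, and 3 fell by at least 2-fold: *gap43*, a growth cone protein gene, by 1.78, *stmn1b*, a microtubule regulator gene, by 1.70, and *snap25b*, a gene of synaptic vesicle fusion with dim values, by 1.31. *snap25b* lost its call without any 1 of the 6 arrays (limma adjusted p from 0.0531 to 0.129) and with a second quantile normalization (0.0601), and *stmn1b* without WT replicate 1 (0.0564) or *fogsk8* replicate 2 (0.0646). The 5 without a call were *stmn2a* (−1.37, limma adjusted p = 0.0681), *syt1a* (−0.96, 0.0808), *snap25a* (−0.73, 0.201), *atp1a3a* (−0.23, 0.385) and *inab* (0.16, 0.751). The summed level of the neuronal markers was 2945 to 3577 in WT siblings and 1468 to 1720 in mutants, with no overlap. A list for cranial motor and sensory neurons held 6 measured genes, whose RNA in whole embryos need not come from cranial neurons alone. Of these, 4 fell and none rose, among them *neurog1*, the proneural gene of sensory neurons, by 1.69, and *isl1a*, which is also among the neurons, by 0.99. The summed level of the 6 genes was 645 to 679 against 295 to 370. Of 13 markers of neural progenitors, 8 fell and none rose, with a median of −0.78. Falls of at least 2-fold were those of the radial glia gene *fabp7a* (−1.88), the Notch target *her4.2* (−1.57) and *notch3* (−1.32). The 5 without a call were *sox2* (−0.33, limma adjusted p = 0.0991), *sox3* (−0.35, 0.121), *sox19b* (−0.16), *notch1a* (−0.78) and the dim *notch1b* (−0.01). The summed level of the 13 markers was 12187 to 13266 against 7816 to 8330. The brightest of them was *pcna*, a DNA replication gene not limited to neural progenitors, which fell from a mean of 12.87 to 12.28. The sum is therefore not a measure of progenitors alone. The part of nerve cell number in the falls of *boc*, of 3 of 9 Eph receptor genes and of 2 of 5 chemokine genes was not tested.

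Lists for tissues that also use these molecules gave further falls. Of 11 genes of neural crest and pigment cells, 5 fell and none rose, 4 of them by at least 2-fold, and the median change was −0.27. Furthest fell *gch2*, an enzyme gene of pteridine pigment (−8.32), *dct* of melanin synthesis (−5.34) and *mitfa*, the melanocyte regulator (−2.83). The crest genes *crestin* and *tfap2a* fell by 2.53 and 0.48. The 6 without a call were *sox10* (−0.23), *foxd3* (0.35), *snai2* (−0.27) and 3 dim genes. The summed level was 2766 to 3620 against 804 to 812. Of 12 skeletal muscle genes 9 fell and none rose, 7 by at least 2-fold, with the contractile and calcium buffer genes *tnnt3b* (−4.65), *pvalb1* (−4.48) and *mylpfa* (−3.46) furthest. The 3 without a call were the regulators *myod1* (0.44, limma adjusted p = 0.409) and *myog* (0.53, 0.383), and *pvalb2* (−2.59, 0.0587). *tnnt3b* lost its call without each array but *fogsk8* replicate 3, and *pvalb1* without replicate 1 or 2 of either group (limma adjusted p up to 0.0976 and 0.0793). The summed level was 36165 to 58546 against 10931 to 15459.

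**Figure D5:**
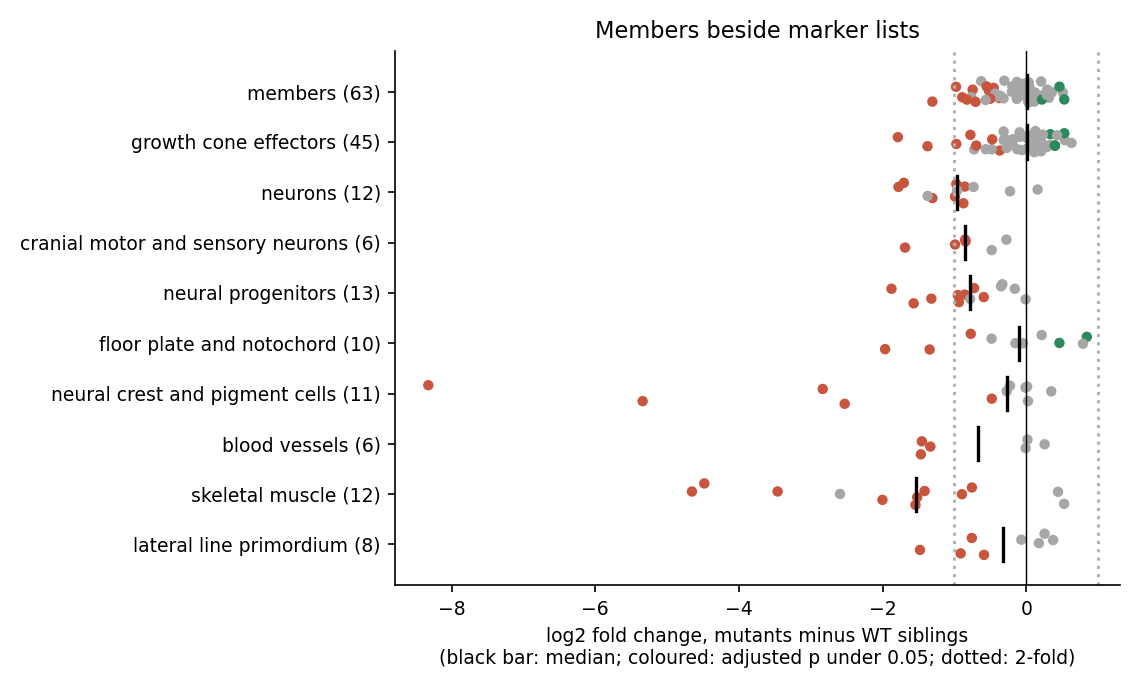
Log2 fold change (mutants minus WT siblings, horizontal axis) of the 63 members and of the measured genes of each of 9 lists, 1 point per gene, with a black bar at the median, red for a fall and green for a rise at an adjusted p under 0.05, and dotted lines at 2-fold. The members and growth cone effectors have medians near 0. Those of skeletal muscle (−1.53), neurons (−0.97), cranial motor and sensory neurons (−0.85), neural progenitors (−0.78) and blood vessels (−0.67) lie lower. Lateral line primordium (−0.33), neural crest and pigment cells (−0.27), and floor plate and notochord (−0.10) lie between. The lower lists hold, in that order, 0, 1, 1, 1 and 2 dim genes. With the 28 dim members left out the median of the members is −0.2.

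The calls differed in how they held when single samples were left out. *boc*, *epha4b*, *ephb2b*, *cxcr4b*, *cxcl12b*, *slit2* and *rtn4ip1* kept an adjusted p under 0.05 in all 6 fits that left out 1 array. The other 7 did not: *sema4e* kept its call only without *fogsk8* replicate 1 or 3, *epha2a* only without *fogsk8* replicate 1, *efna5a* only without *fogsk8* replicate 2, *plxnb2a.3* only without *fogsk8* replicate 3, *ntn1a* and *efna3b* only without WT replicate 1, and *sema4ab* in none. In those fits the adjusted p of these genes was at most 0.134 in limma. With the replicate number as a block, 16 members were lower (12.1% of all genes were) and 3 higher (13.1% of all genes). Of the 14 calls, this fit kept 12, all but *ntn1a* and *sema4ab*. Without replicate 3 of both groups, 7 members were lower (8.78% of all genes) and 3 higher (7.15% of all genes).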

How the data were processed

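Biotin-labelled copies (cRNA) of the RNA of whole embryos were hybridized to 1 Affymetrix Zebrafish Genome Array per sample, with 3 independent replicates in each group. The deposited values are log2 values that the authors made with GC-RMA from the scanner files. The sources used here do not state its version. Absent and present calls were not made, since the work began from the deposited values, and the number of arrays limits the precision. Genotypes came from the sample titles. The table holds 15617 probe sets. Of these, 15502 entered the fit, after removal of 115 controls. The fit used limma 3.58.1 (R 4.3.3) with lmFit and eBayes and no covariate, tests were two-sided, and Benjamini-Hochberg adjustment ran over the whole table.

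Names came from the platform's symbols, of which 10795 probe sets had 1, 135 several and 4572 none. All 63 members matched a RefSeq gene of the assembly GRCz12tu by Entrez ID with no change of symbol. The members have 74 probe sets in all. Standard errors of their changes ran from 0.05 to 0.29 with a median of 0.12. Paralogue pairs are the 664 pairs of symbols that differ only by a final a or b, tested with limma on the difference within each array. Summed levels of marker lists are sums of 2 to the power of each value.

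The members and all gene lists were chosen with earlier results of these data known. The rule for named genes took members past the test with a change of 1.5-fold or more, the members of highest mean and of largest change in each family, and in each list up to 3 genes with the largest change past 2-fold. The other members above the dim range, the dim members and the marker genes without a 2-fold change were named after their values were seen.

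Counts and single genes were also computed with a mean-variance trend in eBayes, the replicate number as a block, without dim probe sets, after median centring or a second quantile normalization, with the mean of all probe sets of a gene, and without each array in turn. Counts of members and pairs were also taken with the t-test of the methods (Student's, on log2 values, unadjusted and adjusted), and the 2-fold counts with a minimum of 1.5-fold. The paralogue pairs were not run with the trend or the other normalizations. A fit without replicate 3 in either group was chosen after seeing the data. Same-numbered samples of the groups had correlations of 0.12, 0.291 and 0.394 between their deviations from the group means. All are over 0.1, the bound used to treat numbers as pairs, although WT replicate 1 correlated more with *fogsk8* replicate 2. The labels name no shared clutch or day, and the fit without the block is the main one. Python 3.11.15, pandas 2.3.3 and matplotlib 3.10.9 drew the figures.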

Additional observations from a re-analysis of the deposited data

How the results depend on the processing

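The counts at 2-fold were 0 higher and 1 lower under both forms of the t-test, the mean-variance trend, the replicate block, both normalizations, the mean of all probe sets and without dim probe sets. A minimum of 1.5-fold gave 6 lower. Leaving out 1 array gave 1 to 2 lower at 2-fold, 6 to 9 lower and 1 to 3 higher at any fold, and 0 to 1 paralogue pairs. Without replicate 3 of both groups, 7 were lower at any fold. With dim paralogues left out, 1 pair differed. With dim probe sets left out, the median change of the members was −0.2, beside 0.0985 over all genes. The replicate block, used as a pairing of the samples, gave 16 lower and 3 higher at any fold, and the calls it changed are given beside the genes. The cause was not tested, except that leaving out arrays leaves fewer samples.

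Small changes turned their sign when 1 array was left out, all with adjusted p values far above 0.05: *robo3* ran from −0.184 to 0.25, *efnb2a* from −0.0617 to 0.0917, *ephb4b* from −0.195 to 0.267, *alcama* from −0.244 to 0.109, *rtn4a* from −0.0769 to 0.0063 and *cntn1b* from −0.027 to 0.223. Without replicate 3 of both groups, *robo3* was at −0.0736, *efnb2a* at −0.0477 and *ephb4b* at −0.175. Among list genes, *snap25b* lost its call in all 6 fits with 1 array left out, and *atoh1a*, *stmn1b*, *rac3b*, *tnnt3b*, *pvalb1* and *col2a1a* in some of them. Signal over background limits the 28 dim members.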
